A study of Mus musculus with 8 samples.

Results

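The 7 genes described here encode nucleases and RNA-binding proteins that meet an antisense oligonucleotide, or the RNA it has been bound to, inside a cell. They are the RNase H genes Rnaseh1 and Rnaseh2a, the exonuclease genes Xrn1 and Xrn2, and the genes of the oligonucleotide-binding proteins Sfpq, Nono and Ssb. They were chosen by name, as the probe sets that carry their Ensembl gene IDs, and all 7 were found among the 22361 probe sets of the table. The names of the 7 IDs come from that choice, since the deposited table holds IDs alone. Each array held liver RNA of a single female mouse of the C57BL/6 strain. There were 4 arrays of mice treated with SPC3833, an antisense oligonucleotide, and 4 of mice that received saline. SPC3833 was given intravenously at 5 mg/kg on 3 consecutive days, counted as days 0 to 2. The study design places the measurement on day 4, whereas the treatment protocol places sacrifice on day 3. The labels used here name neither the target nor the chemistry of SPC3833, and the table has no group given a second oligonucleotide.

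As background, one way in which an antisense oligonucleotide lowers its target is through RNase H, an enzyme that cuts the RNA strand of an RNA-DNA hybrid. The pieces of the cut RNA are then removed by exonucleases that start at their open ends. Oligonucleotides with a phosphorothioate backbone also bind many cellular proteins, among them proteins of the paraspeckle, a nuclear body, and proteins that normally bind other RNAs. These roles concern the proteins, whereas the arrays measured RNA. In whole liver, fewer cells of a type and less RNA per cell cannot be told apart.

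None of the 7 genes changed at the threshold used, a limma Benjamini-Hochberg adjusted p under 0.05 over all 22361 probe sets. The count was 0 of 7, beside 4.07% of all probe sets. At an unadjusted limma p under 0.05 the count was 2 of 7, Rnaseh2a higher and Xrn1 lower with SPC3833, beside 17.2% of all probe sets. This holds for the deposited scaling: Rnaseh2a did not reach an unadjusted p under 0.05 with any of 3 other scalings, whereas Xrn1 did. The SPC3833 and saline values overlapped for all 7 genes, so that 0 of 7 were separate, beside 11.7% of all probe sets. The log2 fold change was above 0 for 3 of the 7 genes and below 0 for 4, beside 58.9% of all probe sets above 0, with a median of -0.0048, beside a median of 0.03 over all probe sets. The median size of the log2 fold change, regardless of sign, was 0.11 for the 7 genes and 0.10 for all probe sets. Their standard errors had a median of 0.113 log2 units, beside 0.106 for all probe sets.

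**Figure D1:**
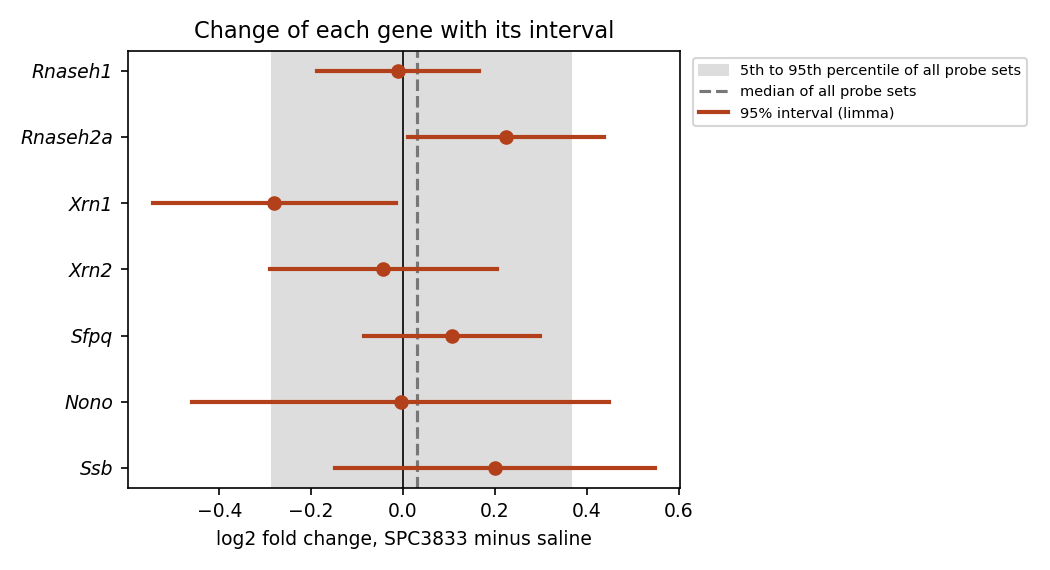
The log2 fold change of each gene (points) with its 95% interval from limma (lines), as SPC3833 minus saline on the horizontal axis, with genes listed down the vertical axis. The grey band spans the 5th to 95th percentile of the log2 fold changes of all 22361 probe sets (-0.29 to 0.37) and the dashed line is their median (0.03); the points of all 7 genes lie inside the band, and only the intervals of Rnaseh2a and Xrn1 leave out 0.

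Of the arrays as a whole, SPC3833 array 2 had the highest mean log2 expression, 5.88, against 5.77 to 5.80 on the other 7 arrays. SPC3833 array 4 had the lowest top value, 13.20, against 14.06 to 14.18 on the others. No value of the 7 genes exceeded 8.34 on any array. The markers of liver cell types were not analysed here, as the IDs of the table could not be paired with their names, so the labelled tissue was not checked.

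Rnaseh1 (ENSMUSG00000020630_at) encodes RNase H1, the enzyme through which oligonucleotides with a DNA stretch are known to act. Its log2 expression was 5.66, 5.84, 5.78 and 5.67 on SPC3833 arrays 1 to 4, against 5.76, 5.77, 5.75 and 5.72 on saline arrays 1 to 4. As deposited, the SPC3833 values lay on both sides of the saline values, with 2 below the lowest and 2 above the highest of them. After quantile normalization, SPC3833 arrays 1 and 4, at 5.64 and 5.70, were below the saline range of 5.74 to 5.78. Arrays 2 and 3, at 5.76 and 5.78, were then within it. Rnaseh1 averaged 5.74 ± 0.09 in SPC3833 livers and 5.75 ± 0.02 in saline livers (SD, n = 4 each). The log2 fold change was -0.011 (SE 0.0802, 95% interval -0.19 to 0.16, limma adjusted p = 0.976). On the linear scale the interval runs from 0.879 to 1.12 times the saline level. The two-sided exact permutation test gave p = 0.83. The spread of Rnaseh1 between mice of a group was among the smallest on the array, with a pooled SD of 0.0634, larger than that of 2.57% of all probe sets, and the interval is accordingly the narrowest of the 7.

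Rnaseh2a (ENSMUSG00000052926_at) encodes the catalytic subunit of RNase H2, the other RNase H of the cell, which also removes single ribonucleotides from DNA. Log2 expression was 7.24, 7.17, 7.45 and 7.27 on SPC3833 arrays 1 to 4, against 7.06, 6.91, 7.03 and 7.23 on saline arrays 1 to 4. All 4 SPC3833 values were above the saline mean and 3 of the 4 were above every saline value, while SPC3833 array 2 fell below saline array 4. Rnaseh2a averaged 7.28 ± 0.12 in SPC3833 livers and 7.06 ± 0.13 in saline livers (SD, n = 4 each), a level 1.17-fold higher. Rnaseh2a thus differed by 0.22 on the log2 scale (SE 0.0976, 95% interval 0.011 to 0.44). It did not pass the threshold (limma unadjusted p = 0.0406, adjusted p = 0.259), and the two-sided exact permutation test gave p = 0.0571, where 4 against 4 arrays can reach 0.0286. The limma unadjusted p was 0.0728 after quantile normalization. It was 0.112 with each array centred on its median and 0.0832 with each centred on its 75th percentile. Over 18 alternative fits the log2 fold change stayed above 0, between 0.17 and 0.29, with adjusted p from 0.137 to 0.510.

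The within-array difference of both RNase H genes, Rnaseh1 minus Rnaseh2a, cancels any offset shared by the whole array. It was -1.54 ± 0.15 log2 units in SPC3833 livers and -1.31 ± 0.15 in saline livers (SD, n = 4 each). The change of Rnaseh1 was thus 0.24 log2 units below that of Rnaseh2a (difference -0.24, 95% interval -0.50 to 0.024). Over all 4 SPC3833 arrays the difference was below the saline mean, but the groups overlapped. The two-sided exact permutation test gave p = 0.0571, and 0.0857 after Benjamini-Hochberg adjustment over the 3 gene pairs compared.

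**Figure D2:**
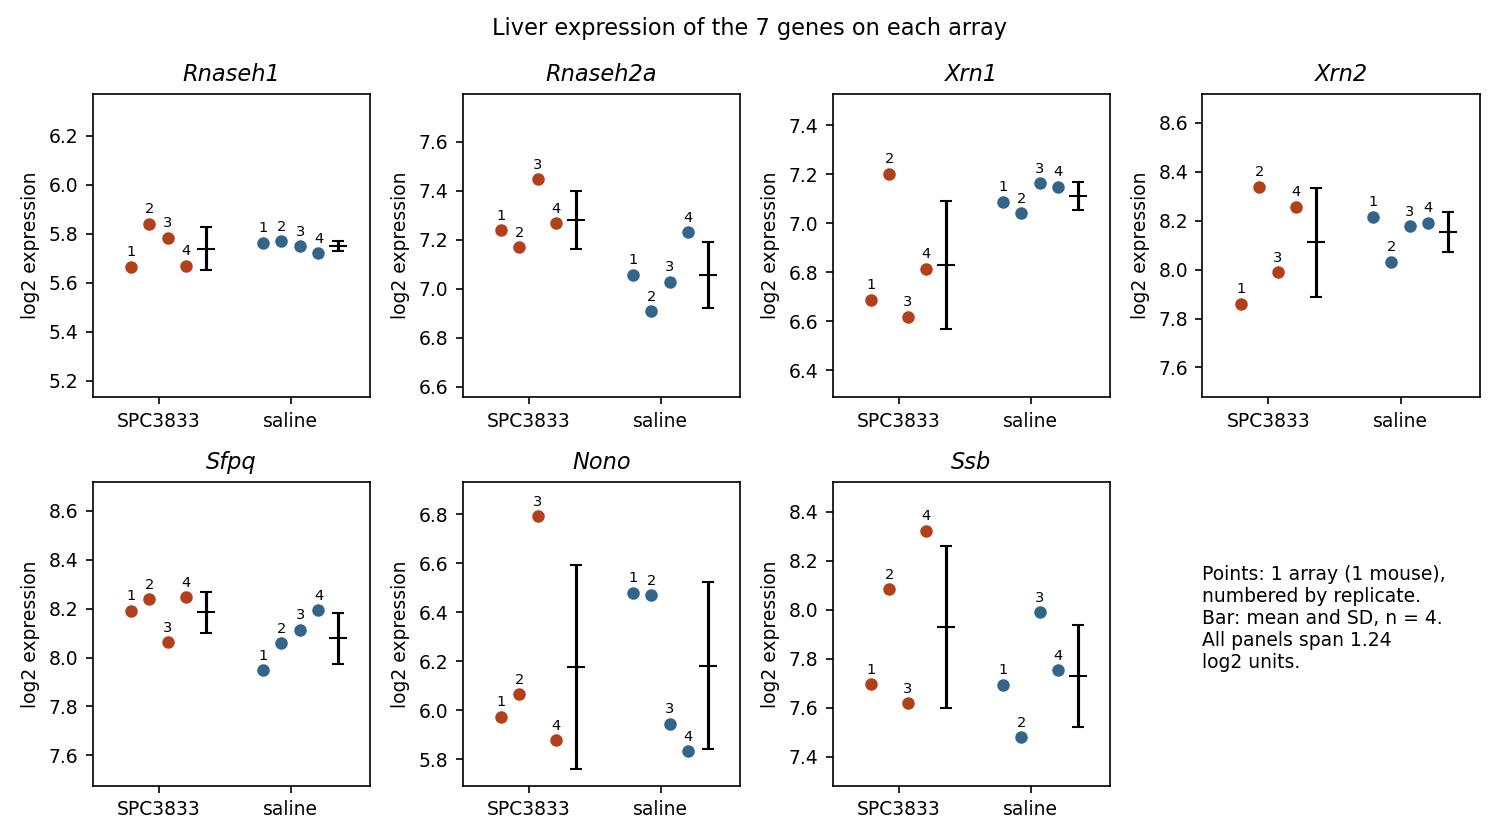
Log2 expression (vertical axis) of each of the 7 genes on every array, with SPC3833 arrays (brown, left) and saline arrays (blue, right) numbered by replicate, and the mean and SD of each group as a bar (n = 4). All panels span the same range of log2 units, so spreads can be compared by eye: Rnaseh1 lies within 5.66 to 5.84, Nono spreads over 5.83 to 6.79 and, of the SPC3833 values of Xrn1, array 2 (7.20) lies above and arrays 1, 3 and 4 lie below all saline values.

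Xrn1 (ENSMUSG00000032410_at) encodes the main cytoplasmic 5′-to-3′ exoribonuclease, which degrades RNAs that have lost their cap. It had the largest log2 fold change of the 7 genes. On SPC3833 arrays 1 to 4 the log2 expression of Xrn1 was 6.69, 7.20, 6.62 and 6.81, against 7.09, 7.04, 7.16 and 7.15 on saline arrays 1 to 4. SPC3833 arrays 1, 3 and 4 were below every saline array, whereas SPC3833 array 2 was above every one of them. Xrn1 averaged 6.83 ± 0.26 in SPC3833 livers and 7.11 ± 0.06 in saline livers (SD, n = 4 each), a level 1.21-fold lower. Its log2 fold change was -0.28 (SE 0.121, 95% interval -0.54 to -0.015) and did not pass the threshold (limma unadjusted p = 0.0399, adjusted p = 0.257). The two-sided exact permutation test gave p = 0.143.

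The call for Xrn1 turned on SPC3833 array 2. Without it the log2 fold change was -0.40 (SE 0.0878) and passed the threshold (limma adjusted p = 0.0317), in a fit in which 4.32% of all probe sets were called. Without SPC3833 arrays 2 and 4 together, a fit added once the data had been seen, it was -0.46 (limma adjusted p = 0.0393), with 2.44% of all probe sets called. Arrays 2 and 4 held the highest Xrn1 values of the SPC3833 group. A larger fall without them was thus fixed in advance, and this fit is no support for a change of Xrn1. In the other 16 of 18 alternative fits Xrn1 did not pass, and over all 18 the log2 fold change ran from -0.46 to -0.21 and the adjusted p from 0.0317 to 0.469. After quantile normalization, which makes the distributions of all arrays equal, Xrn1 on SPC3833 array 2 was at 7.11, within the saline range of 7.08 to 7.17, while SPC3833 arrays 1, 3 and 4 were at 6.69, 6.64 and 6.80. ENSMUSG00000020609, named here after its values were seen, had the largest fall in the table. Its fall against the saline mean was smallest on SPC3833 array 2, at -2.43, beside -2.98 to -2.73 on the other SPC3833 arrays. As it was picked for its mean fall over these same arrays, it is no independent check of array 2. The part of the higher array mean in the Xrn1 value on array 2 was not tested beyond the scalings among the alternatives.

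**Figure D3:**
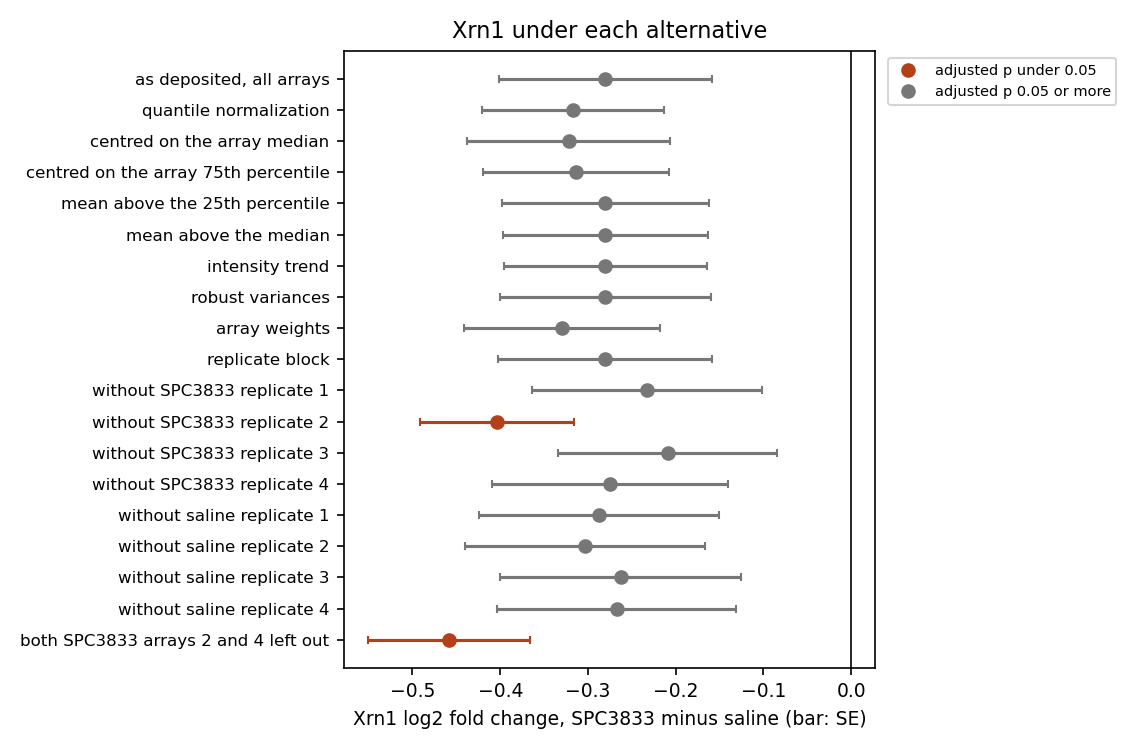
The log2 fold change of Xrn1 (horizontal axis, SPC3833 minus saline, points with SE bars) under the deposited values with all arrays and under each of 18 alternatives (vertical axis). Brown points have a limma adjusted p under 0.05: the fit without SPC3833 replicate 2 (-0.40) and the fit without SPC3833 arrays 2 and 4 (-0.46). The latter was chosen after the data were seen and leaves out the highest Xrn1 values of the SPC3833 group.

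Xrn2 (ENSMUSG00000027433_at) encodes the nuclear 5′-to-3′ exoribonuclease, known for its part in ending transcription by RNA polymerase II. Its log2 expression was 7.86, 8.34, 7.99 and 8.26 on SPC3833 arrays 1 to 4, against 8.22, 8.03, 8.18 and 8.19 on saline arrays 1 to 4. As deposited, array 2 was again the highest of the SPC3833 arrays, and 2 SPC3833 values lay below and 2 above every saline value. After quantile normalization, SPC3833 array 4 was the highest at 8.24 and array 2 was at 8.23. These values lay within the saline range of 8.08 to 8.30. Xrn2 averaged 8.11 ± 0.22 in SPC3833 livers and 8.15 ± 0.08 in saline livers (SD, n = 4 each). For Xrn2 the log2 fold change was -0.043 (SE 0.113, 95% interval -0.29 to 0.20, limma adjusted p = 0.922), and the exact permutation test, two-sided, gave p = 0.771.

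The paralogs were also compared within each array. Xrn1 minus Xrn2 was -1.17, -1.14, -1.37 and -1.44 log2 units on SPC3833 arrays 1 to 4, against -1.13, -0.99, -1.01 and -1.04 on saline arrays 1 to 4. All 4 SPC3833 values, array 2 included, were below every saline value, though SPC3833 array 2 and saline array 1 differed by little. The difference in response was -0.24 (95% interval -0.43 to -0.041), and the exact permutation test, two-sided, reached its lowest possible p for 4 against 4 arrays, 0.0286. After adjustment over the 3 pairs the exact permutation p was 0.0857, which does not pass 0.05. After quantile normalization the difference was -0.23 and the exact permutation p 0.0571. The groups then overlapped. Xrn1 and Xrn2 lay closer together on SPC3833 array 2 (7.11 and 8.23) than on saline array 1 (7.14 and 8.30). An unequal change of Xrn1 and Xrn2 was thus not called.

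The RefSeq table of promoters (build GRCm38.p6, from 250 bases before to 50 bases after the start of the gene) held 6 of the 7 genes, all except Rnaseh1. The windows of Rnaseh2a, Xrn1 and Xrn2 are shown because these genes are compared above, with every CG dinucleotide in capitals. The window of Rnaseh2a is chr8:84966027-84966326 on the minus strand, that of Xrn1 chr9:95954510-95954809 on the plus strand and that of Xrn2 chr2:147012749-147013048 on the plus strand, each written 5′ to 3′.
Rnaseh2a: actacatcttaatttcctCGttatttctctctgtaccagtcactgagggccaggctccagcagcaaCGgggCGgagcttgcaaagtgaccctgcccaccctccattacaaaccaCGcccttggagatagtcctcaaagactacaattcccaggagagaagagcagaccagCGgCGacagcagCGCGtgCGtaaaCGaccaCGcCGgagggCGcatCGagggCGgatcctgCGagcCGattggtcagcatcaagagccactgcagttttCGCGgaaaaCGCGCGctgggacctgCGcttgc
Xrn1: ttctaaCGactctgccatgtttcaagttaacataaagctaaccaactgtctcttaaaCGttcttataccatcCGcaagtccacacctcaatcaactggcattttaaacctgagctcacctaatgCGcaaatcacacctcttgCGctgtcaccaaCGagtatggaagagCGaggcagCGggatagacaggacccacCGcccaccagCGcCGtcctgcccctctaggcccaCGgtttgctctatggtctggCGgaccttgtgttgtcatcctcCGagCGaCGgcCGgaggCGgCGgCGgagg
Xrn2: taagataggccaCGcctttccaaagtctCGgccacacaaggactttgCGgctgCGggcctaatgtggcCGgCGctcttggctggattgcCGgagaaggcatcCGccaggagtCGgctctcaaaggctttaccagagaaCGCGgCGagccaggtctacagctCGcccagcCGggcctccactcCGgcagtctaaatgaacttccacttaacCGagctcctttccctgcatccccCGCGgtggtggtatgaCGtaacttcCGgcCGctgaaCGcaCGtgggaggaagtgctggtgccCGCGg

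The windows hold 23 CG dinucleotides in Rnaseh2a, 20 in Xrn1 and 25 in Xrn2, beside a median of 7 over the 32851 windows of the table. The other genes had 23 (Nono), 18 (Ssb) and 13 (Sfpq), so that all 6 windows lay above that median. A count of 13 or more was present in 37.9% of all windows. The letters TATAAA, the core of the TATA box, occurred on either strand in 0 of the 6 windows and in 13.6% of all windows. GGGCGG, known as the GC box, occurred in Rnaseh2a, Xrn1 and Ssb, 3 of 6, and in 35.7% of all windows. CCAAT occurred in Rnaseh2a, Sfpq and Nono, 3 of 6, and in 37.4% of all windows. Each motif was counted on both strands and on its own, whether or not it overlapped another. Of the exonuclease genes, Xrn1 held 1 GC box and Xrn2 held none of these 3 motifs. These are descriptions of letters in a window, and no test was made on them.

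Sfpq (ENSMUSG00000028820_at) encodes a splicing factor and paraspeckle protein that is known to bind phosphorothioate oligonucleotides. Log2 values were 8.19, 8.24, 8.06 and 8.25 on SPC3833 arrays 1 to 4, against 7.95, 8.06, 8.11 and 8.19 on saline arrays 1 to 4. Of the SPC3833 values 3 were above the saline mean, and 2 were above every saline value. Sfpq averaged 8.18 ± 0.08 in SPC3833 livers and 8.08 ± 0.10 in saline livers (SD, n = 4 each). For Sfpq the log2 fold change was 0.11 (SE 0.0878, 95% interval -0.085 to 0.30, limma adjusted p = 0.625), and the exact permutation test, two-sided, gave p = 0.171. With 1 array left out the Sfpq log2 fold change ran from 0.063 (without saline array 1) to 0.15. The upper end of the interval corresponds to a level 1.23 times that of saline livers.

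Nono (ENSMUSG00000031311_at) encodes the partner with which Sfpq forms dimers in the paraspeckle. Expression on the log2 scale was 5.97, 6.07, 6.79 and 5.88 on SPC3833 arrays 1 to 4, against 6.48, 6.47, 5.94 and 5.83 on saline arrays 1 to 4. Mice of the same group differed widely: SPC3833 array 3 stood above every other array, and saline arrays 1 and 2 stood above saline arrays 3 and 4. Nono averaged 6.18 ± 0.42 in SPC3833 livers and 6.18 ± 0.34 in saline livers (SD, n = 4 each). The log2 fold change was -0.0048 (SE 0.207, limma adjusted p = 0.995), and the exact permutation test, two-sided, gave p = 1. Its pooled SD of 0.381 was larger than that of 97.2% of all probe sets and of 98.7% of the probe sets in its 25% band of mean expression. The 95% interval, -0.46 to 0.45, therefore includes levels from 0.728 to 1.37 times that of saline livers. Changes within that range are not excluded by these arrays. The smallest change of Nono that would pass the threshold was not worked out.

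Sfpq minus Nono was 2.01 ± 0.50 log2 units in SPC3833 livers and 1.90 ± 0.44 in saline livers (SD, n = 4 each). The difference in response was 0.11 (95% interval -0.70 to 0.92), with a two-sided exact permutation p of 0.800, both before and after adjustment over the 3 pairs. With 1 array left out, this difference ran from -0.031 (without saline array 1) to 0.36 and the Nono log2 fold change from -0.21 (without SPC3833 array 3) to 0.095, so neither had a settled sign.

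Ssb (ENSMUSG00000068882_at) encodes the La protein, which binds the uridine-rich ends of new RNA polymerase III transcripts and is also known, from human cells, to bind phosphorothioate oligonucleotides. Its log2 expression was 7.70, 8.08, 7.62 and 8.32 on SPC3833 arrays 1 to 4, against 7.69, 7.48, 7.99 and 7.75 on saline arrays 1 to 4. As deposited, SPC3833 arrays 2 and 4 were above every saline array, and SPC3833 arrays 1 and 3 were within the saline range. After quantile normalization only SPC3833 array 4, at 8.31, was above the saline range of 7.53 to 7.99. Array 2, at 7.96, was then within it. Ssb averaged 7.93 ± 0.33 in SPC3833 livers and 7.73 ± 0.21 in saline livers (SD, n = 4 each). For Ssb the log2 fold change was 0.20 (SE 0.159, 95% interval -0.15 to 0.55, limma adjusted p = 0.609), and the two-sided exact permutation p was 0.343. With 1 array left out it stayed above 0, between 0.070 (without SPC3833 array 4) and 0.30 (without SPC3833 array 3). Without SPC3833 arrays 2 and 4, a fit added once the data had been seen, it was -0.072. These arrays held the highest Ssb values of the SPC3833 group, so a lower value without them was fixed in advance.

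Within the SPC3833 group the 7 genes ordered the mice differently. As deposited, array 2, which had the highest array mean, was the highest for Rnaseh1, Xrn1 and Xrn2 and the lowest for Rnaseh2a. After quantile normalization it stayed the highest for Xrn1 and the lowest for Rnaseh2a. Array 3 was then the highest for Rnaseh1 (5.780, against 5.763 on array 2) and array 4 for Xrn2 (8.24, against 8.23 on array 2). Array 3 was the highest for Rnaseh2a and Nono and the lowest for Xrn1, Sfpq and Ssb. Array 3 deviated from the SPC3833 mean by 0.61 for Nono and by -0.31 for Ssb, and array 4 by -0.30 for Nono and by 0.39 for Ssb. Within saline, array 2 was the lowest for Rnaseh2a, Xrn1, Xrn2 and Ssb. In the deposited values the SD between mice was larger with SPC3833 than with saline for Rnaseh1, Xrn1, Xrn2, Nono and Ssb. It was smaller for Rnaseh2a and Sfpq, but this depended on the scaling. After quantile normalization, Rnaseh2a ran from 7.08 to 7.46 with SPC3833 and from 6.94 to 7.20 with saline. Sfpq then ran from 8.08 to 8.23 with SPC3833 and from 8.04 to 8.16 with saline, so both genes had the wider range with SPC3833. For Xrn1 the SD of the deposited values was 0.261 with SPC3833 and 0.0571 with saline. The difference in spread was not tested. The share of all probe sets with the larger SD in SPC3833 was not worked out, so a wider spread cannot be called particular to these genes.

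**Figure D4:**
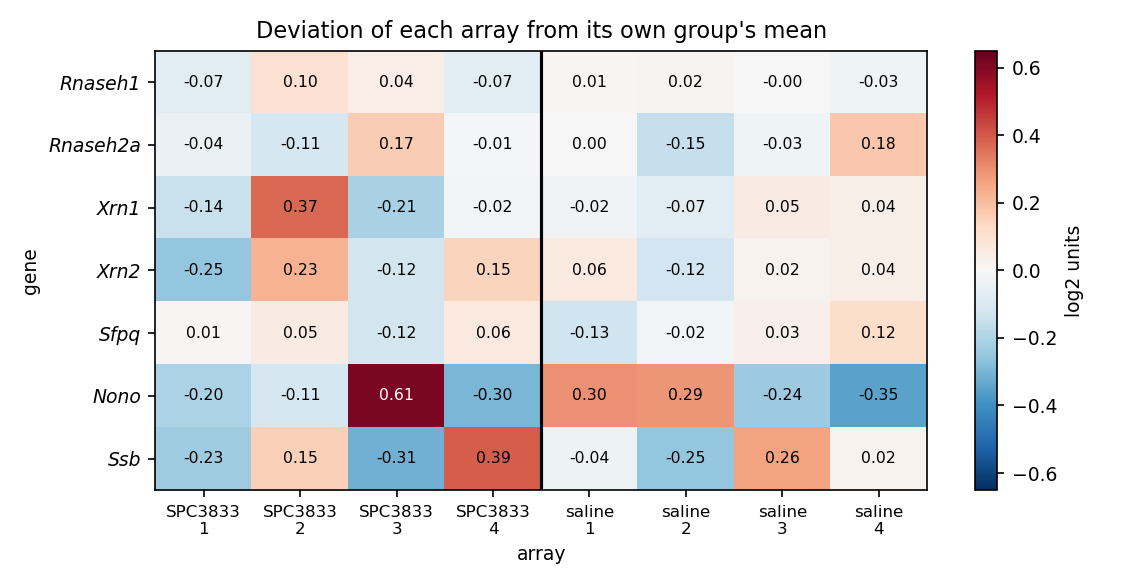
Deviation of each array from the mean of its own group, in log2 units (colour and printed value), for the 7 genes (rows) on the 4 SPC3833 arrays (left of the line) and the 4 saline arrays (right). The deviations furthest from 0 were those of Nono on SPC3833 array 3 (0.61), Ssb on SPC3833 array 4 (0.39), Xrn1 on SPC3833 array 2 (0.37) and Nono on saline array 4 (-0.35), while Rnaseh1 stays within -0.07 to 0.10 throughout.

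By mean expression, Rnaseh2a, Xrn2, Sfpq and Ssb lay in the brightest 25% of the probe sets, of which 10.4% were called changed in this comparison. Rnaseh1, Xrn1 and Nono lay in the 25% below these, of which 4.28% were called changed. Against these shares, 0 of 4 and 0 of 3 of the genes were called.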

How the data were processed

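The deposited table holds 22361 probe sets on 8 arrays as log2 values made by the authors. Its range, 0.879 to 14.2, is the basis for taking the scale as log2. The affy package is listed in the submitters' processing notes. How the authors corrected background, normalized, defined probe sets and chose a build is not given in the sources used here. No 2 arrays of 1 group had more than 0.134% of their values identical, and each counts as 1 sample, labelled a biological replicate.

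Groups came from the sample titles. The main test was limma (version 3.58.1, R version 4.3.3) with no intensity trend and no covariate, two-sided, on all probe sets, with Benjamini-Hochberg adjustment over all 22361. Standard errors and 95% intervals are those of that fit. Single genes and 3 within-array differences also had two-sided exact permutation tests over the 70 assignments of arrays (scipy 1.17.1). Intervals of the within-array differences use the pooled variance of both groups. The fit was tested on simulated data. Figures were drawn with matplotlib 3.10.9.

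The 7 genes, the lists and the tests were chosen with earlier results of these data known. All 7 genes are named whatever their values. Another 12 lists of pathway and cell type genes, and the probe sets most like each gene, were to be named through the RefSeq gene table, but 0 of its 49997 entries hold an Ensembl ID, so these were not analysed here. Alternatives were other scalings, filters, variance models, array weights, the replicate block, other thresholds and leaving out arrays. The deviations of same-numbered arrays from their group means had correlations, across all probe sets, of 0.159, 0.043, -0.030 and 0.145, above 0.1 in 2 of 4 pairs. Of the 8 arrays, 5 correlated best with the array of their own number in the other group. Same-numbered arrays were not taken as pairs in the main test. The number of arrays limits the precision.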

Additional observations from a re-analysis of the deposited data

Results flagged for a closer look

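Of 24 sets of 4 values examined for an array apart from the rest of its group, 1 held such an array, and chance gives about 1 in 20. It was SPC3833 array 4, whose brightest probe set reached 13.20, while those of SPC3833 arrays 1 to 3 reached 14.13 to 14.17. All values of the 7 genes lay at or below 8.34.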

How the results depend on the processing

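No gene of the 7 passed the threshold in the fits with all arrays, whichever scaling, filter or variance model was used, nor at adjusted p under 0.01 or under 0.1 on the deposited values. Rnaseh2a and Sfpq kept a log2 fold change above 0, and Xrn1 one below 0, in all 18 alternative fits. Without SPC3833 arrays 2 and 4, chosen after the data were seen, Xrn1 was at -0.46 and passed, so that 1 gene was called, while Nono was at 0.20 and Ssb at -0.072. These arrays held the highest Xrn1 and Ssb values of the SPC3833 group. The lower values of Xrn1 and Ssb in this fit thus followed from the choice of arrays. With array weights Nono was at 0.077. Leaving out 1 array gave -0.045 to 0.014 for Rnaseh1, -0.40 to -0.21 for Xrn1, -0.12 to 0.041 for Xrn2, 0.063 to 0.15 for Sfpq, -0.21 to 0.095 for Nono and 0.070 to 0.30 for Ssb. It gave -0.031 to 0.36 for the Sfpq minus Nono difference in response, and 0 to 1 genes called, the 1 being Xrn1 without SPC3833 array 2. The causes of these shifts were not tested. With 3 against 4 arrays the exact permutation test cannot go below 0.0571.

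With the replicate block, the log2 fold changes stayed as they were, and the limma adjusted p was 0.270 for Xrn1 and 0.251 for Rnaseh2a; it changed no call among the 7. The pair differences under the block had exact sign-flip p of at least 0.125, the smallest 4 pairs can give. Over all probe sets 911 were called, 856 with the replicate block, 467 to 967 with 1 array left out, 545 without SPC3833 arrays 2 and 4, 1552 among those above the median, 296 at adjusted p under 0.01 and 1582 under 0.1. The median log2 fold change of all probe sets was 0.03 as deposited and between -0.011 and -0.0028 after 3 other scalings.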
